A study of Mus musculus with 36 samples.

Results

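The 47 genes described here encode the proteins that license origins of DNA replication, unwind and copy the DNA, finish the new strands, wrap them in chromatin and supply deoxynucleotides. They were chosen by symbol, as 47 of the 21955 gene rows in each count table, and were sorted into 9 roles. RNA was sequenced from regenerating liver of C57BL/6JN mice, an inbred laboratory strain, in young animals of 4 months and old animals of 18 months. Each age was sampled before and at the labels 48, 72, 96, 120 and 240, with 3 biological replicates in each of the 12 groups and 36 libraries in all. The labels name the old mice as the treated group, so the young mice are the reference. The unit of the time labels, the way regeneration was induced, any treatment of the mice labelled before and the sex of the animals are not given in the sources used here. Total RNA came from frozen liver, was depleted of ribosomal RNA, and carried an added set of control RNAs of which a different mix was used for each age.

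Origins are licensed in G1, when the origin recognition complex, CDC6 and CDT1 load the ring-shaped MCM2-7 helicase onto them. Geminin blocks CDT1 once S phase has begun. The kinases CDK and CDC7-DBF4, with TICRR, MCM10, CDC45 and the GINS complex, turn loaded rings into moving helicases. Polymerase alpha and primase lay down primers, polymerases delta and epsilon extend them on the PCNA clamp, and FEN1 and LIG1 join the lagging strand. Adult hepatocytes are mostly out of the cell cycle and re-enter it after loss of liver mass, which makes these genes a usual readout of S phase entry in liver. In bulk tissue, fewer cells of a type and less RNA per cell cannot be told apart.

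Sequences before a RefSeq start of 6 members, chosen after their values were seen, are shown to set motifs near that start beside the changes in RNA. At young 48, 5 of the members rose, with and without an E2F-type match, and Mcm10 fell. RefSeq promoters of build GRCm38.p6, taken at the first start listed for a gene and spanning 250 bases before to 50 after it, were found for 38 of the 47 members. Each line gives the 170 bases that end just before the start, on the gene's own strand. Capitals mark an E2F-type match (TTTCCCGC, TTTCGCGC, TTTGCCGC or TTTGGCGC on either strand) or a CCAAT box (CCAAT, or ATTGG on the other strand); overlapping matches run together.
Mcm5 (chr8:75109339-75109508, plus strand): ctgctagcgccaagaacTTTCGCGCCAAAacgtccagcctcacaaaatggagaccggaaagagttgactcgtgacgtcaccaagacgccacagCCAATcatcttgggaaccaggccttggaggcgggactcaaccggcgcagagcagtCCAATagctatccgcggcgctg
Mcm6 (chr1:128359706-128359875, minus strand): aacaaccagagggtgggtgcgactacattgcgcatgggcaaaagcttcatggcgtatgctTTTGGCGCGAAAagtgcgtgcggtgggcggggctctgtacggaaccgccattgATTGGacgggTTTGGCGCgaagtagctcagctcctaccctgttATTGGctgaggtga
Cdc6 (chr11:98907981-98908150, plus strand): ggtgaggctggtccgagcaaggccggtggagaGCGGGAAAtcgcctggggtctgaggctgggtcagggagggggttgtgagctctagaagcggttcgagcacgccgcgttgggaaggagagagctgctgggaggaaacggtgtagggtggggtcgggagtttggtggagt
Gins3 (chr8:95633389-95633558, plus strand): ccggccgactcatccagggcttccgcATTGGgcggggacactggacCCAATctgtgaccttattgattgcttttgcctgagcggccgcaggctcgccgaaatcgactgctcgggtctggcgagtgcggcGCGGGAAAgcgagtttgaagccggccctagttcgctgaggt
Rrm1 (chr7:102441525-102441694, plus strand): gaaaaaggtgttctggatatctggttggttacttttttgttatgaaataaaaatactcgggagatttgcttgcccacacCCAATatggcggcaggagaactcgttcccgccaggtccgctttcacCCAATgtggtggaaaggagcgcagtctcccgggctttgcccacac
Mcm10 (chr2:5012792-5012961, minus strand): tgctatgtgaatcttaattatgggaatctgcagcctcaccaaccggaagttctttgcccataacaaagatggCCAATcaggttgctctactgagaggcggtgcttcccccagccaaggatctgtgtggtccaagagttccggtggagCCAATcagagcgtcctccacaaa
Mcm5 and Mcm6, both parts of the helicase ring, held 2 and 3 E2F-type matches in these stretches, and each held 2 CCAAT boxes. Cdc6, the helicase loader, held 1 E2F-type match and no CCAAT box, and Gins3, a GINS subunit, held 1 and 2. By the GENCODE M21 annotation, used below, the Cdc6 gene begins at 98907801 and the Gins3 gene at 95633453. All of the Cdc6 stretch, and the part of the Gins3 stretch that holds its E2F-type match, then lie inside the gene. Rrm1, the large subunit of ribonucleotide reductase, and Mcm10 held 2 CCAAT boxes each and no E2F-type match. Over the full windows, 13 of 38 members (34.2%) held an E2F-type match, against 626 of 27025 genes (2.32%). A CCAAT box was found in 23 of 38 members (60.5%) and in 37.9% of the 27025 genes. These matches describe letters and do not show that a factor binds there.

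The libraries held between 2328233 and 6034446 counts, with a median of 4439170, and the 47 members together took 0.0275% to 0.186% of them. Levels below are CPM, a gene's share of its library's counts, after scaling by trimmed mean of M values (TMM). A gene is said to have risen or fallen where edgeR's quasi-likelihood test, fitted on all 36 libraries at once, gave an adjusted p under 0.05 over 13436 genes. Of the members, 46 passed the filter on low counts and were tested, and Pole2, a subunit of polymerase epsilon, did not pass. Each group held 1 library with Y-linked transcripts and 2 without. The biological spread within a group, taken over all genes, was 40.6% in old 48 and 19.4% to 27.2% in the other 11 groups. Hepatocyte markers summed to between 36250 and 64850 CPM in every library.

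Before regeneration, members differed widely in level per length of exon. In young liver before, Pcna stood at 10.2 ± 1.45 CPM per kb (SD, n = 3) and Gins4 at 8.90 ± 1.32. Pole2 stood at 0.158 ± 0.0675, and Ticrr was the lowest at 0.0486 ± 0.0639. At young 48, Fen1 at 49.2 ± 6.31, Rrm2 at 46.5 ± 12.1 and Pcna at 43.4 ± 5.02 CPM per kb held the highest levels, and their ranges of mean ± SD overlapped. Mcm7 followed at 21.2 ± 3.06, and Orc1 at 0.681 ± 0.127 and Pole2 at 0.614 ± 0.335 were the lowest. Exon lengths come from GENCODE M21, which is not stated to be the annotation the counts used.

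**Figure D1:**
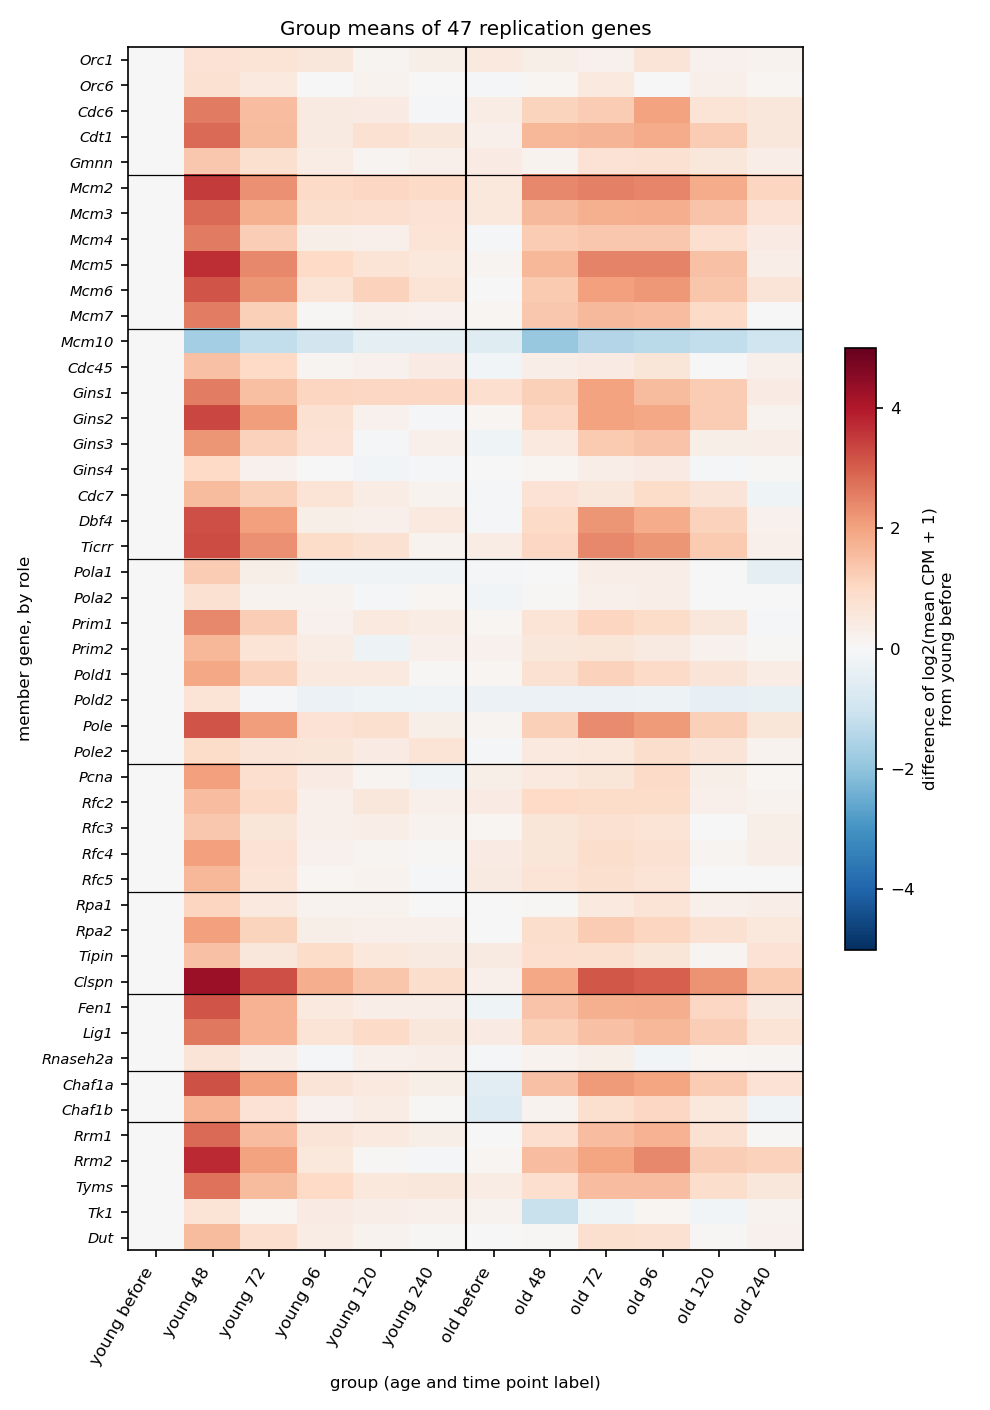
Heat map of 47 members (rows, grouped by role) in 12 groups (columns), coloured by the difference of log2(mean CPM + 1) from young before. In young liver 46 rows have their highest mean at 48 and Mcm10 has it before; in old liver 23 rows have it at 72 and 20 at 96.

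In young liver most of the replication genes were higher at 48 than before. Of 46 members tested, 43 rose and 1 fell against before, with a median log2 fold change of 2.45, while 12.2% of all genes tested rose, 9.79% fell and the median over all genes was -0.01. CPM did not overlap between the groups for 44 of 47 members that were higher, against 20.6% of all genes. With total-count scaling in place of TMM, 2055 genes rose and 883 fell, against 1634 and 1315, and 44 members were called under both. All 6 MCM2-7 genes, 7 of 7 polymerase and primase genes, 5 of 5 clamp and loader genes and 8 of 9 firing genes rose.

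Rrm1, at chromosome 7 from 102441695 to 102469771 on the plus strand, makes the large subunit of the enzyme that turns ribonucleotides into deoxynucleotides. It was measured at 7.07, 10.7 and 14.5 CPM in young before and at 101.3, 70.1 and 80.1 CPM at young 48. Every library at 48 lay far above every library before, a log2 fold change of 2.97 ± 0.28 (SE; 7.82-fold, adjusted p = 1.51e-07). Rrm2, the small subunit of the same enzyme, went from 10.2, 8.21 and 8.23 CPM to 162.4, 95.2 and 128.6 CPM, with no overlap (14.4-fold, adjusted p = 8.33e-05). Tyms, which makes thymidylate, went from 4.93 ± 1.67 to 38.1 ± 7.48 CPM (SD, n = 3), and its log2 fold change was 2.95 ± 0.36 (SE). Dut, which clears dUTP, also rose by 1.67 on the log2 scale. Tk1, the thymidine salvage kinase, stood at 39.4, 32.3 and 19.96 CPM against 19.4, 24.4 and 12.6 before; the ranges overlapped and the difference did not pass (log2 0.71 ± 0.37, adjusted p = 0.186).

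Fen1 cuts the flaps left between lagging-strand fragments. Its CPM were 12.1, 13.2 and 12.6 before and 129.6, 101.7 and 126.4 at young 48, so that the lowest library at 48 was well above the highest before (9.44-fold, adjusted p = 1.02e-06). Of its exon bases, 84.2% are shared with Gm10143 and Tmem258 on the opposite strand in GENCODE M21, and whether reads were counted by strand is not given in the sources used here. Lig1, the ligase of the same step, rose by 3.35 ± 0.62 and Rnaseh2a, which removes RNA primers, by 0.67 ± 0.23 on the log2 scale. Pcna, the sliding clamp, went from 23.7, 28.4 and 21.6 CPM to 115.0, 106.1 and 91.2 CPM with a wide gap between the groups (4.24-fold, adjusted p = 4.75e-06). The loader subunits Rfc2 to Rfc5 rose by 1.74 to 2.54.

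Among helicase genes, Mcm7 at chromosome 5, 138164583 to 138172422 on the minus strand, was the most abundant. It stood at 14.8, 14.7 and 16.0 CPM in young before and at 109.5, 85.6 and 86.5 CPM at 48, a tight group against a high one (log2 2.63 ± 0.31, adjusted p = 1.48e-06). The other 5 rose by 2.74 for Mcm4 to 3.98 for Mcm5. In GENCODE M21 Mcm7 shares 12.6% of its exon bases with other genes, among them Cops6 and Ap4m1 on the opposite strand. Of the 47 members, 9 share over 10% of their exon bases and 30 share none. Of the licensing genes, Cdt1 went from 3.33, 3.48 and 3.63 CPM to 27.8, 28.2 and 37.9 CPM, again with no overlap (8.93-fold, adjusted p = 4.49e-05). Cdc6 rose by 3.41, Gmnn (geminin) by 1.61 and Orc6 by 0.91, and Orc1, the largest subunit of the origin recognition complex, did not pass (adjusted p = 0.0706).

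The largest fold in young 48 was that of Clspn (claspin), a checkpoint adaptor that travels with the fork. Its CPM were 1.04, 0.995 and 0.726 before and 41.7, 27.4 and 39.7 at 48 and the groups were far apart (38.1-fold, log2 5.25 ± 0.70). Rpa1, the large subunit of the single-strand binding protein, was already at 25.8, 29.6 and 33.9 CPM before and reached 74.0, 63.9 and 52.0 CPM, a 2.13-fold rise with no overlap. Rpa2 rose by 2.25 and Tipin, a fork protection factor, by 2.36. Pole, the catalytic subunit of polymerase epsilon, went from 5.62, 3.98 and 3.63 CPM to 57.5, 48.4 and 36.5 CPM (10.6-fold, adjusted p = 1.61e-05). Pola2 and Pold2, accessory subunits of polymerases alpha and delta, rose least in that role, by 0.82 and 0.73. Pole2 had 6 counts over the 3 libraries before and 23 at young 48, a ratio of 3.54 with a 95% counting interval of 1.40 to 10.6. Counting intervals, here and below, pool the counts of the 3 libraries of a group. They leave out variation between animals, so they are too narrow for a change between animals.

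Chaf1a and Chaf1b, subunits of the chromatin assembly factor that deposits histones behind the fork, rose together. Chaf1a went from 7.07, 4.23 and 6.78 CPM to 72.1, 49.4 and 68.5 CPM, and Chaf1b from 1.31 ± 0.763 to 6.69 ± 1.78 CPM (SD, n = 3). In GENCODE M21, 52.5% of the exon bases of Chaf1a lie opposite Ubxn6, and Chaf1b shares none. Among firing genes Ticrr rose by 4.75 on the log2 scale, Gins2 by 4.20, Gins1 by 3.58 and Dbf4, the regulatory subunit of CDC7, by 3.43, and Gins4 by 1.04. Of 6 endothelium markers 3 fell at young 48, with sums of 183.1 to 278.4 CPM against 352.0 to 391.9 before, and 1 of 8 hepatocyte markers fell; their part in the members' result was not tested. In young before, 8 members held at most 12 counts over the 3 libraries, so that their folds are loose. Ticrr had 6 counts before and 188 at 48, a ratio of 28.9 with a 95% counting interval of 13.0 to 79.8. For Prim1 (6 and 103 counts) the ratio was 15.8 (7.03 to 44.2), for Gins1 (10 and 145) 13.4 (7.07 to 28.5) and for Clspn (12 and 522) 40.1 (22.8 to 78.2). Over the alternatives, between 41 and 44 members were called at young 48, and 39 to 42 when any 1 library of the 2 groups was left out.

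**Figure D2:**
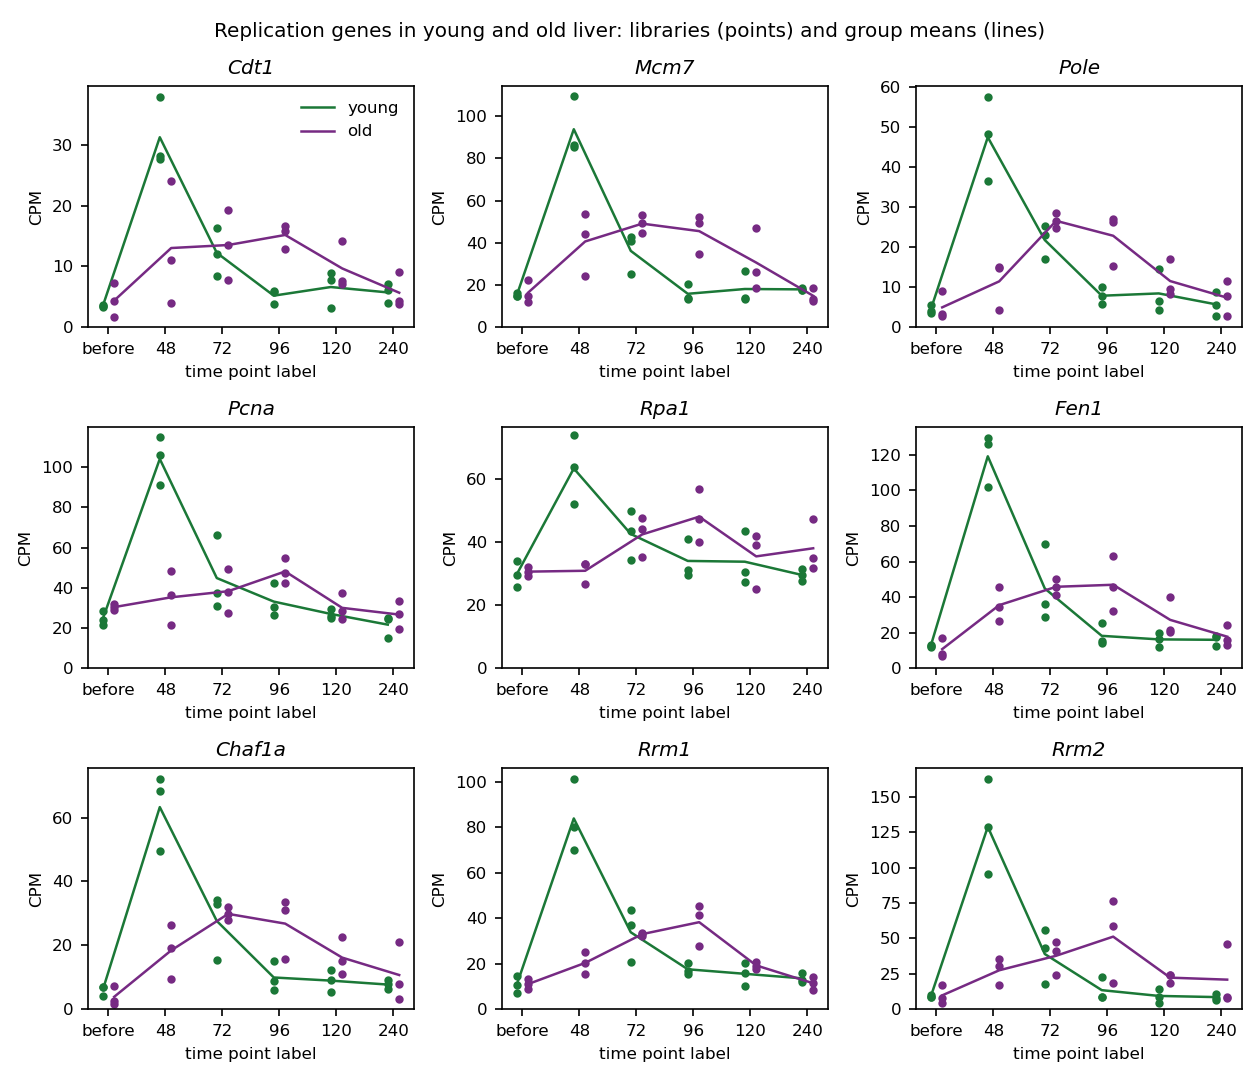
CPM (vertical axis, from 0) of 9 members at the 6 time labels (horizontal axis, equally spaced, not to scale in time) in young and old liver; points are libraries and lines join group means, n = 3 per group. Young means are highest at 48, where Fen1 averages 119.2 CPM, and old means are highest at 72 or 96, where Fen1 averages 46.9 CPM at 96.

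Mcm10, a firing factor that helps the helicase start, was the exception. Its CPM were 114.8, 31.1 and 32.45 in young before and 15.85, 14.2 and 22.9 at young 48; all 3 libraries at 48 were below all 3 before, and its log2 fold change was -1.76 ± 0.57 (adjusted p = 0.0284). Without young before replicate 1, the library at 114.8 CPM, the log2 fold change was -0.85 (adjusted p = 0.339), and the call was lost under 6 of 14 alternatives. That library is the one in its group with Y-linked transcripts. In 11 of the 12 groups the library with Y-linked transcripts held the most Mcm10, at 1.26 to 3.62 times the mean of the other 2, and in old 240 it held 0.782 times that mean. Such a pattern in at least 11 groups was shown by 119 of 13432 genes (0.886%) and by no other member. With only the 24 libraries that lack Y-linked transcripts, the log2 fold change was -1.05 (adjusted p = 0.0204). Mcm10, at chromosome 2 from 4989714 to 5012791 on the minus strand, shares no exon bases with another gene in GENCODE M21.

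**Figure D3:**
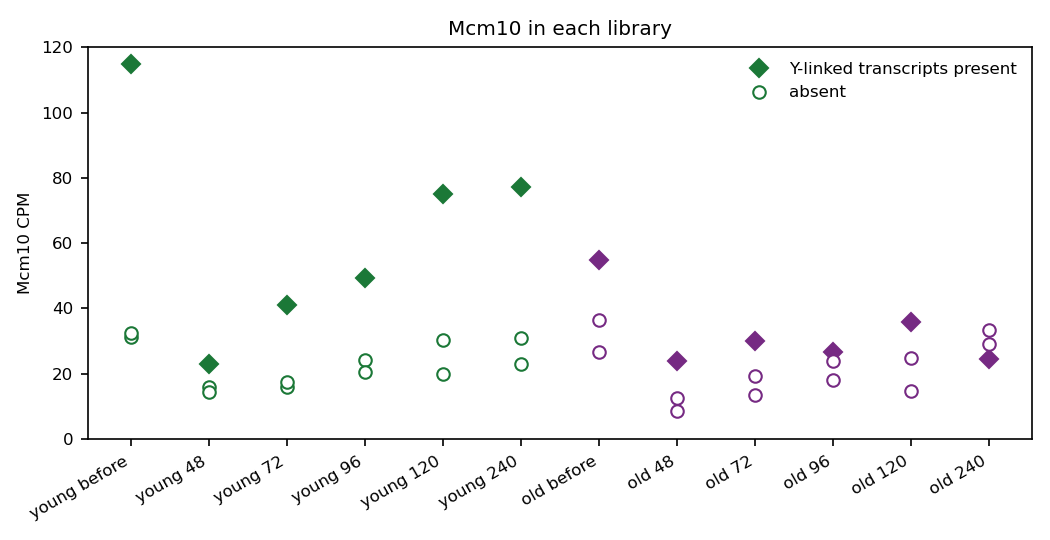
Mcm10 CPM (vertical axis, from 0) in each of the 36 libraries by group; filled diamonds are libraries with Y-linked transcripts and open circles those without. The diamond is the highest point in 11 groups, from 22.9 CPM in young 48 to 114.8 CPM in young before, and the lowest in old 240 at 24.4 CPM.

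At young 72 many members were still above before. Of 46 members 28 rose and 0 fell against the same 3 libraries before, where 9.21% of all genes rose, and the members' median log2 fold change was 1.33 against 0.01 over all genes. With total-count scaling 2096 genes rose and 537 fell, against 1237 and 1103, and the median over all genes was 0.211. All 6 MCM2-7 genes rose, with 6 of 9 firing genes, 3 of 7 polymerase genes and 3 of 5 clamp and loader genes. Clspn was at 22.6, 21.4 and 6.62 CPM, with every library above those before (log2 4.16 ± 0.71, adjusted p = 0.000398). Rrm1 was at 36.9, 43.5 and 20.9 CPM, also clear of the libraries before (1.66 ± 0.27, adjusted p = 0.000294). Replicate 3 was the lowest of its group for 36 of 47 members and replicate 2 the highest for 36. Of the markers tested, 2 of 3 for cholangiocytes and 2 of 5 for stellate cells rose at young 72 and 3 of 6 for endothelium fell; the cholangiocyte markers summed to 41.0 to 285.3 CPM against 40.6 to 49.4 before, and their part in the members' result was not tested. The count of members called was 13 without young before replicate 1, 13 without young 72 replicate 2 and 30 without young 72 replicate 3.

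From 48 to 72 in young liver, 5 members fell, namely Rrm1 (-1.31 ± 0.25, log2), Mcm7 (-1.37), Pcna (-1.22), Fen1 (-1.41) and Rfc5 (-1.05), where 0.871% of all genes fell. The fold change was negative for 45 of 46 members and reached an unadjusted p under 0.05 for 35. The count of 5 was 0 without young 48 replicate 1, young 72 replicate 1 or young 72 replicate 3, and 1 without young 48 replicate 3. It was 9 without young 72 replicate 2 and 11 by DESeq2. Over all genes DESeq2 called 246 lower, against 117 by edgeR. From 72 to 96 none passed by edgeR (25 at an unadjusted p under 0.05; 4 by DESeq2; 5 without young 72 replicate 3), with a median of -0.77, where 0.134% of all genes rose and 0.238% fell.

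At young 96, 120 and 240 no member was called by edgeR in the fit of all libraries, with 7, 4 and 1 members at an unadjusted p under 0.05, and DESeq2 called 1, 0 and 0. Fitted with no other libraries and filtered anew, the pairs of groups tested 34, 32 and 31 members. They gave 3 calls at 96, with a smallest adjusted p of 0.0234 in edgeR, and 0 at 120 and 240. The median log2 fold changes were 0.54, 0.36 and 0.33, and 0.662%, 0.216% and 0.0521% of all genes rose at these labels while 0.737%, 0.365% and 0.194% fell. Rrm2, for one, stood at 8.72, 22.8 and 8.57 CPM at 96 against 10.2, 8.21 and 8.23 before, with overlapping ranges. CPM lay above every library before, with no overlap, for 18 of 47 members at 96, against 13.9% of all genes.

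In old liver fewer members passed the test at 48 than at 72 or 96. All comparisons within an age share that age's 3 libraries before, so they are not independent of each other. At old 48, 10 of 46 members rose and 1 fell, with a median log2 fold change of 0.90, where 12.1% of all genes rose and 12% fell. Those that rose were Cdt1, Mcm2, Mcm4, Mcm7, Rpa2, Clspn, Fen1, Chaf1a, Chaf1b and Rrm1. CPM did not overlap between old 48 and before for 7 of 47 members that were higher and 2 that were lower. Over all genes these shares were 14.9% and 16.6%. None of 9 firing genes, 7 polymerase genes or 5 clamp and loader genes passed the test.

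At old 48 Fen1 was at 45.6, 26.5 and 34.2 CPM against 17.1, 7.82 and 7.07 before, with no overlap (log2 1.73 ± 0.36, adjusted p = 0.00101). Mcm7 was at 53.8, 24.1 and 44.0 CPM against 22.3, 15.0 and 11.9, so that its lowest library at 48 was just above the highest before (1.31 ± 0.31, adjusted p = 0.00307). Pcna was at 48.2, 21.3 and 36.2 CPM against 30.5, 28.8 and 31.7, with the 48 libraries on both sides of those before (0.21 ± 0.27, adjusted p = 0.6). Chaf1b had 6 counts over the 3 old libraries before and 23 at 48, a ratio of 3.51 with a 95% counting interval of 1.39 to 10.5.

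Tk1, at chromosome 11 from 117815526 to 117826092 on the minus strand, was the member that fell. It was at 4.67, 6.28 and 13.7 CPM at old 48 against 12.2, 22.6 and 29.0 before, ranges that overlapped slightly (log2 -1.36 ± 0.40, adjusted p = 0.0141). The call was lost under 4 of 14 alternatives, among them leaving out old before replicate 3 (adjusted p = 0.102), old 48 replicate 1 (0.076) or old 48 replicate 2 (0.0775). Tk1 shares 83 exon bases, 1.6% of its exons, with Afmid on the other strand. Afmid, a kynurenine pathway enzyme, was at 3.85 to 78.3 CPM at old 48 and at 114.8 to 288.8 CPM before, and it fell by 2.62 ± 0.55 on the log2 scale. The part of Afmid reads in the Tk1 result was not tested.

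The 3 old 48 libraries stood apart from each other, as their spread of 40.6% shows. Summed over the 47 members they held 705.3, 329.6 and 557.8 CPM, and replicate 2 was the lowest for 37 members and replicate 1 the highest for 30. Mitosis genes summed to 153.8, 50.9 and 592.1 CPM in the same libraries, so replicate 3 held the most mitotic transcripts and replicate 1 the most replication transcripts. Of 6 Kupffer cell and macrophage markers 3 fell at old 48, with summed levels of 121.1 to 668.2 CPM against 599.8 to 888.2 before, and 4 of 8 hepatocyte and 2 of 6 endothelium markers fell. Cholangiocyte markers summed to 56.7 to 214.7 CPM against 30.8 to 62.0, with 0 of 3 tested called by edgeR (1 at an unadjusted p under 0.05). T and B cell markers, of which 6 of 7 listed were found, summed to 0.445 to 6.75 CPM against 6.62 to 14.7, and none of the markers was at 0 in all 3 libraries. Their part in the members' result was not tested. The count of 11 members called at old 48 became 17 without old 48 replicate 2 or old before replicate 1, 8 without old 48 replicate 3, 6 without old before replicate 2, and 3 without old 48 replicate 1 or old before replicate 3. A fit of only old 48 and old before, with its own filter on low counts, tested 38 members. It called 0, with 13 at an unadjusted p under 0.05. Of all genes, 98 rose and 123 fell in that fit, against 1626 and 1617 in the fit of all libraries.

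**Figure D4:**
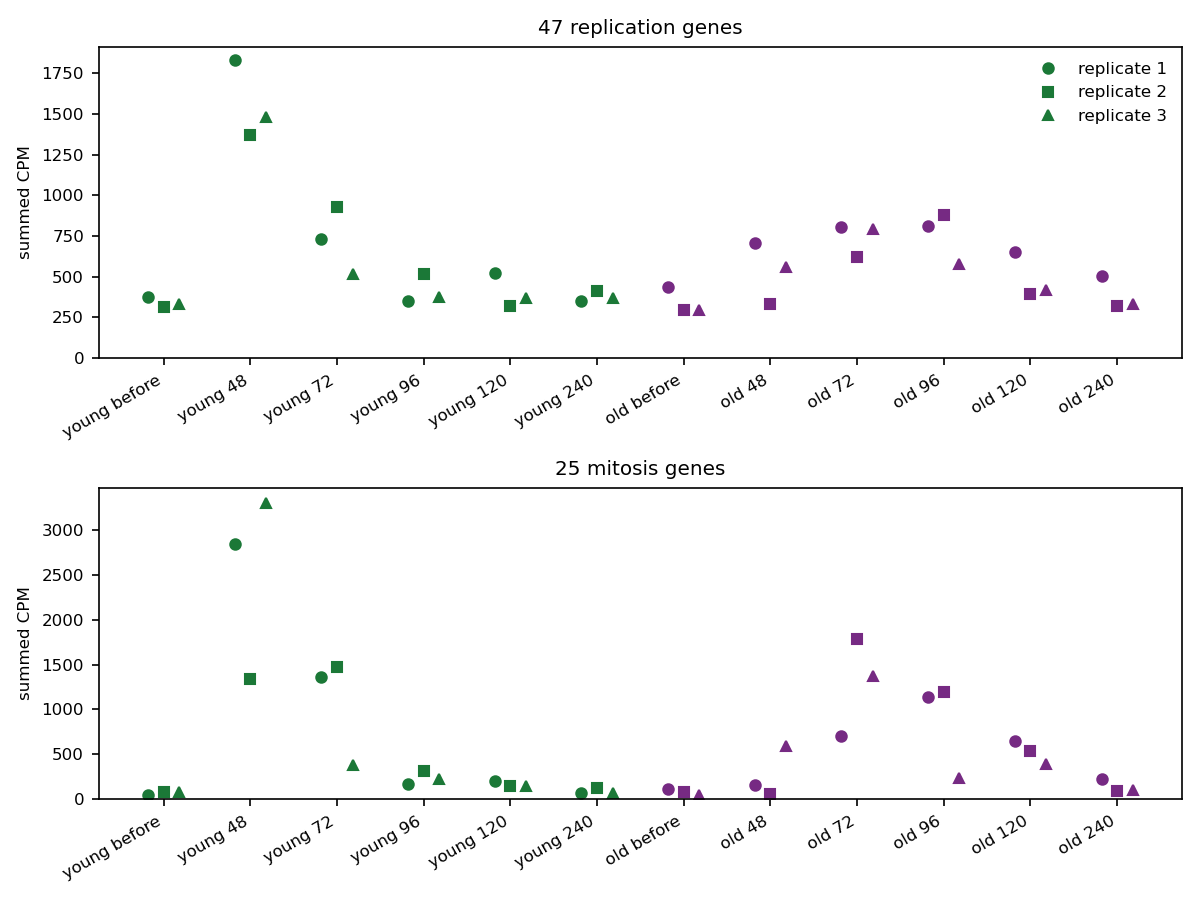
Summed CPM per library (vertical axes, from 0) of the 47 members (top) and of 25 mitosis genes (bottom) by group; symbols are replicates. The young 48 libraries hold 1370 to 1836 CPM of the members, the old 48 libraries 329.6 to 705.3 CPM and the old 96 libraries 578.9 to 882.3 CPM.

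At old 72, 22 of 46 members rose and 0 fell (median log2 1.29; 6.54% of all genes rose and 5.81% fell), and at old 96 it was 21 and 0 (median 1.34; 3.76% rose and 3.07% fell). With total-count scaling 1279 genes rose and 489 fell at 72 (879 and 781 with TMM) and 657 and 279 at 96 (505 and 412). All 6 MCM2-7 genes rose at 72 and 5 of 6 at 96, and both chromatin assembly genes rose at each. None of the 5 clamp and loader genes passed at either label: Pcna was 0.34 ± 0.27 at 72 and 0.67 ± 0.27 at 96 on the log2 scale. Of the 7 polymerase and primase genes tested, Pole and Pold1 rose at 72 and Pole rose at 96.

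Fen1 was at 45.8, 41.2 and 50.4 CPM at old 72, close together and all above before (log2 2.10 ± 0.36, adjusted p = 0.000444). At old 96 it was at 45.5, 62.9 and 32.4 CPM (2.14 ± 0.36, adjusted p = 0.000883). Rrm1 was at 33.7, 32.3 and 32.9 CPM at old 72 and at 45.5, 41.6 and 27.6 CPM at old 96, against 13.2, 8.94 and 10.95 before. Both labels lay clear of the libraries before for Rrm1, with log2 fold changes of 1.58 ± 0.27 and 1.79 ± 0.27 (adjusted p = 0.000461 and 0.000405). Chaf1b reached 44 counts at 72 and 42 at 96 from 6 before, ratios of 6.70 (95% counting interval 2.84 to 19.2) and 8.57 (3.62 to 24.7). Rpa1 passed at 96 (0.65 ± 0.20, adjusted p = 0.0488) and not at 72 (0.47 ± 0.20, adjusted p = 0.124).

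Of 6 endothelium markers 2 fell at old 72 and 1 at old 96, with sums of 204.1 to 267.8 and 215.1 to 265.2 CPM against 288.3 to 410.2 before. T and B cell markers summed to 3.04 to 5.54 CPM at 72 and 3.52 to 4.78 at 96 against 6.62 to 14.7, and 1 of 2 tested fell at 72; 1 of 5 stellate markers also fell at 72. No hepatocyte, Kupffer cell or cholangiocyte marker was called at either label, and the part of these markers in the members' result was not tested. Within old 96, replicate 3 was the lowest library for 34 of 47 members and its mitosis genes summed to 233.5 CPM, against 1133 and 1195 in the other 2 libraries. The old 72 count was 13 without old before replicate 2 and 11 without old before replicate 3. The old 96 count was 8 and 6 without those libraries, 12 without old 96 replicate 1 and 8 without old 96 replicate 2.

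At old 120, 4 members rose, namely Clspn, Chaf1a, Chaf1b and Fen1, where 1.85% of all genes rose and 2.02% fell. Fen1 was at 40.1, 21.3 and 20.05 CPM, above the 17.1, 7.82 and 7.07 before (log2 1.33 ± 0.36, adjusted p = 0.0358). Chaf1b had 25 counts against 6 before, a ratio of 4.88 with a 95% counting interval of 1.96 to 14.6. The count was 0 without old before replicate 2, old before replicate 3 or old 120 replicate 1. It was 0 of 36 tested in a fit of only the 2 groups, where 110 of all genes rose and 92 fell. With only the libraries that lack Y-linked transcripts it was 10, where 484 of all genes rose and 473 fell. In the fit of all libraries 248 rose and 272 fell. At old 240 no member was called by edgeR or DESeq2 (1 at an unadjusted p under 0.05; median log2 0.21), where 0.0149% of all genes rose and 0.141% fell. Between successive labels from 48 to 240 no member was called in old liver by edgeR or DESeq2, with 13, 0, 12 and 5 members at an unadjusted p under 0.05. Over all genes 1.39% rose and 1.28% fell from 48 to 72, 0% changed in the next pair of steps, and 0.0893% rose and 0.119% fell from 120 to 240. The members' counts changed with 1 library: 72 against 48 gave 2 without old 48 replicate 3, and 240 against 120 gave 1 without old 120 replicate 3.

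The label of each member's top group mean is given as a description. In young liver 46 of 47 members had it at 48, where 26.6% of all genes tested had theirs. In old liver 23 had it at 72 (13.9% of all genes), 20 at 96 (9.65%), 2 at 48 (26.9%), 1 before and 1 at 240. The old top mean was lower than the young top mean for all 47 members, with a median ratio of 0.519 and a range of 0.307 for Prim1, the catalytic primase subunit, to 0.934 for Pole2; the median over all genes was 0.995.

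Old and young liver were then compared at each label. Before regeneration no member differed by edgeR or DESeq2 (2 at an unadjusted p under 0.05; median log2 0.13), where 0.0372% of all genes were higher and 0.0223% lower. At 48, 35 of 46 members were lower in old liver and 0 higher, with a median of -1.47 against 0.02 over all genes, where 6.78% of all genes were lower and 4.42% higher. The fold change was negative for 46 of 46. CPM did not overlap for 42 of 47 members, all lower in old, against 12.8% of all genes. This comparison shares the young 48 libraries with that of young 48 against before.

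All 7 polymerase and primase genes and all 5 nucleotide supply genes were lower at old 48, as were 5 of 6 MCM2-7 genes, 6 of 9 firing genes, both chromatin assembly genes and 2 of 5 licensing genes. Rrm1 held 24.9, 15.6 and 20.45 CPM in old 48 against 70.1 to 101.3 CPM in young 48, 4.13-fold lower with no overlap (log2 -2.05 ± 0.26, adjusted p = 4.77e-05). For Tyms the old libraries held 10.7, 3.65 and 14.3 CPM and the young 41.7, 29.5 and 43.1 CPM, and the highest old library was below the lowest young one (-2.00 ± 0.33, adjusted p = 0.000407). Pcna was 2.96-fold lower (-1.56 ± 0.27, adjusted p = 0.000515). Among firing genes Ticrr was at -2.69 ± 0.67 and Gins2 at -2.62 ± 0.48, the furthest from 0 of all members. Gins2 held 3.56, 1.22 and 5.11 CPM in old 48 and 25.8, 15.3 and 19.7 CPM in young 48, again with a gap between the groups. Of the exon bases of Gins2, 67.3% lie opposite Gse1 in GENCODE M21.

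The 11 members that did not pass at 48 were Cdt1, Orc1, Orc6, Mcm2, Mcm10, Cdc45, Cdc7, Rfc2, Rfc3, Tipin and Rnaseh2a. Cdt1 was at 24.01, 4.05 and 11.05 CPM in old 48 and at 27.8, 28.2 and 37.9 CPM in young 48, so that no values overlapped although the old libraries spread widely (-1.27 ± 0.45, adjusted p = 0.0634). Mcm10 was the nearest to 0, at -0.23 ± 0.59.

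Of the marker lists, 1 of 3 cholangiocyte markers tested was higher in old liver at 48, and none was called for hepatocytes (8), Kupffer cells (6), endothelium (6), stellate cells (5) or T and B cells (2). The members called at 48 were called with the other groups in the fit, and which part of that fit the calls rest on was not tested. When only the 6 libraries at 48 were fitted, no member passed by edgeR (smallest adjusted p = 0.0678). In that fit 38 members had an unadjusted p under 0.05 and 46 of 46 fold changes stayed negative, with a median of -1.45. Of all genes it called 1 higher and 0 lower, against 594 and 911 in the fit of all 36 libraries. In the fit of all 36 libraries, the count was 18 without old 48 replicate 2, 22 without young 48 replicate 1 and 31 to 35 without any other library of these groups.

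**Figure D5:**
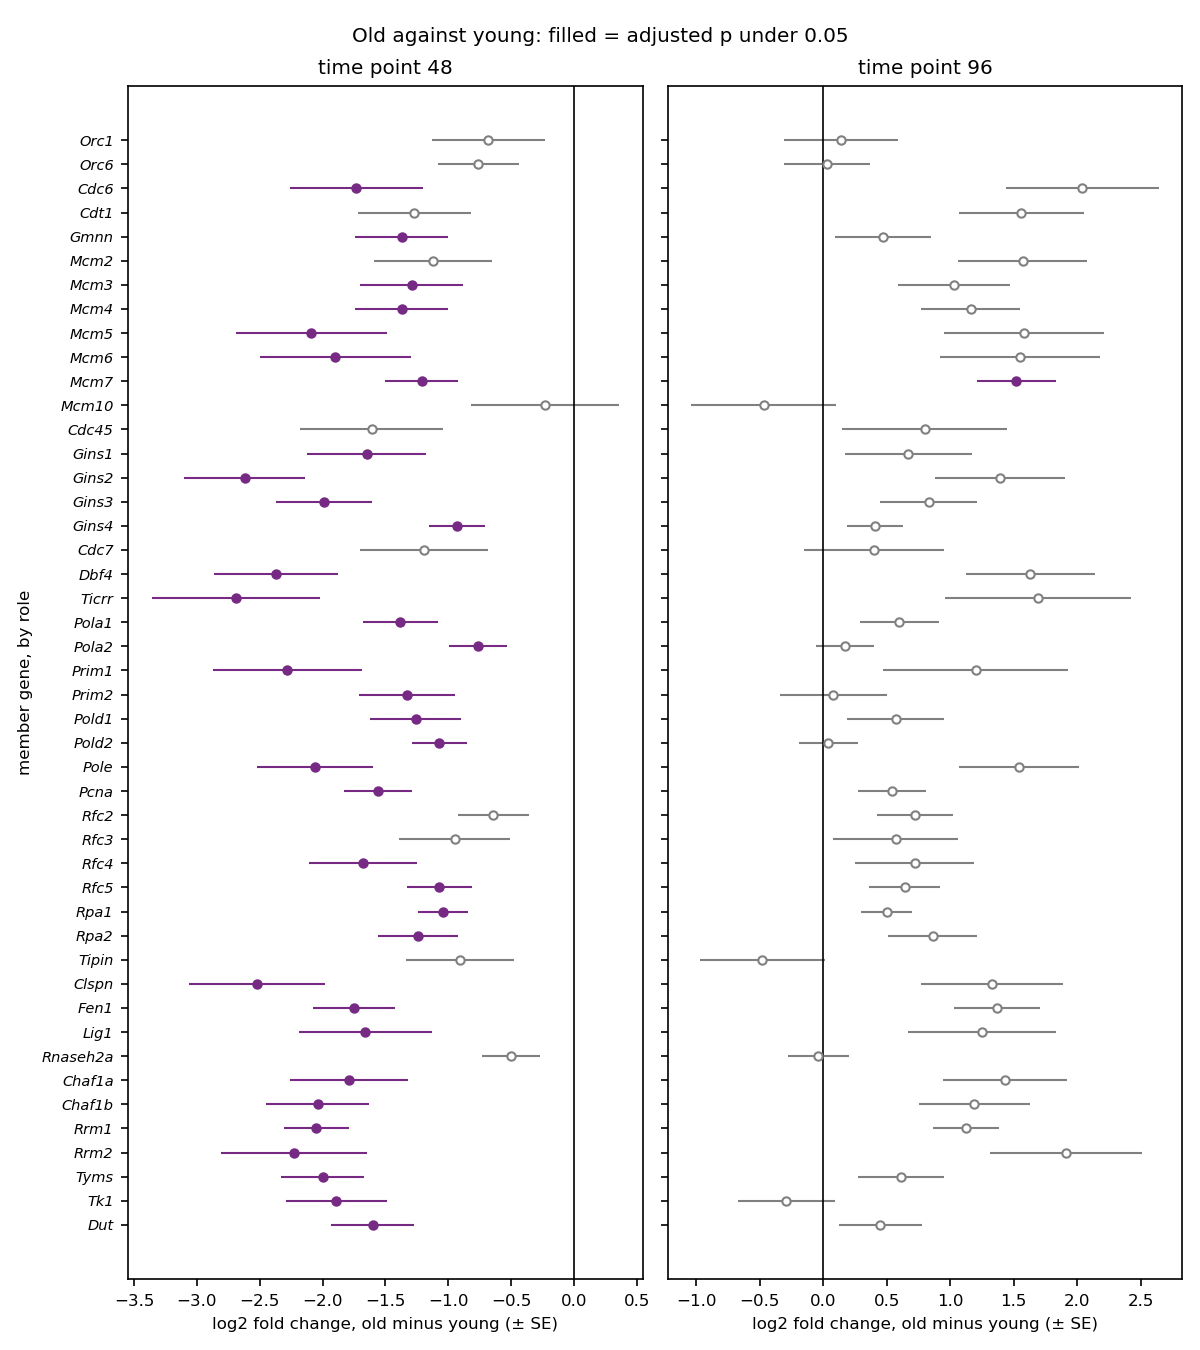
Log2 fold change of old minus young (horizontal axis, with SE bars) for 46 members (rows, by role) at 48 and at 96; filled points have an adjusted p under 0.05 by edgeR. At 48 all points lie left of 0 and 35 are filled; at 96, 42 lie right of 0 and Mcm7 is filled.

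At 72 the ages did not differ detectably: 0 members were called by edgeR or DESeq2, 0 had an unadjusted p under 0.05, the median was -0.00 and 0% of all genes were called in either direction. At 96 the fold change was positive, higher in old, for 42 of 46 members, 24 of them at an unadjusted p under 0.05, and a median of 0.76. One member, Mcm7, passed, where 0.134% of all genes were higher. It held 49.4, 52.3 and 34.9 CPM in old 96 and 13.2, 20.3 and 13.8 CPM in young 96, with no overlap (log2 1.52 ± 0.31, adjusted p = 0.0471). Rrm1 (1.12 ± 0.26, adjusted p = 0.0514) and Fen1 (1.37 ± 0.34, adjusted p = 0.0636) came next and did not pass. CPM lay above all young libraries for 25 of 47 members, against 9.94% of all genes. The count at 96 was 0 without any 1 library of these groups except old 96 replicate 3, without which it was 4. It was 6 by DESeq2 and 7 of 41 tested in a fit of only these 2 groups. Over all genes DESeq2 called 156 higher and 74 lower at 96, and the fit of only these 2 groups called 70 and 38. The fit of all libraries called 18 and 5. At 120 and 240 none was called by edgeR or DESeq2 (3 and 0 at an unadjusted p under 0.05; medians 0.27 and 0.03), where 0% and 0.0149% of all genes were higher.

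Whether the course over time differed between the ages was tested by 1 F test over the 5 differences in change from before. It called 15 of 46 members, against 2.76% of all genes. They were Rrm1, Tyms and Rrm2 of nucleotide supply; Gins2, Gins3 and Dbf4 of firing; Pcna and Rfc5 of the clamp and loader; Chaf1a and Chaf1b of chromatin assembly; Rpa1 and Clspn at the fork; and Fen1, Mcm7 and Pole. No licensing gene was among them. The count was 7 without young 48 replicate 1, 7 without old 48 replicate 2 and 25 by DESeq2. Over all genes DESeq2 called 733, against 371 by edgeR.

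Taken label by label, the rise to 48 was smaller in old liver for 5 members, where 1% of all genes were called in that direction. Rrm1 rose 7.82-fold in young and 1.84-fold in old, a difference of -2.09 ± 0.38 on the log2 scale (adjusted p = 0.00908). Pcna differed by -1.87 ± 0.39 and Tyms by -2.45 ± 0.50 (both adjusted p = 0.0185), Rfc5 by -1.58 ± 0.38 (0.034) and Gins1 by -3.13 ± 0.79 (0.0422). The difference was negative for 45 of 46 members, with a median of -1.65. The count at 48 was 1 without young before replicate 1 or young 48 replicate 1, 2 without young before replicate 2 and 3 without young 48 replicate 3 or old before replicate 2. It was 11 without old 48 replicate 3 and 15 by DESeq2. Over all genes DESeq2 called the difference negative for 357, against 135 by edgeR. At 72, 96, 120 and 240 no member differed by edgeR or DESeq2, with 2, 7, 1 and 1 at an unadjusted p under 0.05 and medians of -0.16, 0.57, 0.08 and -0.14.

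Other genes of the pathway and of the cell cycle were read from lists of their own. Of 33 other replication genes tested, 18 rose and 1 fell at young 48, where 12.2% of all genes rose and 9.79% fell. Their median log2 fold change was 0.69. Timeless, the partner of Tipin (2.41 ± 0.28), and Topbp1, an activator of firing and of the checkpoint (2.16 ± 0.26), rose with the smallest p. Rrm2b, the p53-induced small subunit of ribonucleotide reductase, fell by 0.90 ± 0.26. At 48, 14 of the 33 were lower and 2 higher in old liver (median -0.51), where 6.78% of all genes were lower and 4.42% higher.

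Of 12 S phase control genes 8 rose at young 48, where 12.2% of all genes rose. The smallest p was found for E2f7, a repressor of E2F target genes (3.69 ± 0.54), and Ccna2, the S phase cyclin (5.11 ± 0.75). E2f1, an activator of many of these genes, rose by 2.56 and Ccnd1, the G1 cyclin, did not pass (0.46 ± 0.65, adjusted p = 0.665); both are named after their values were seen. Of the 12, 5 were lower at old 48, where 6.78% of all genes were lower than in young liver. All 25 mitosis genes rose at young 48, with a median of 5.31. The kinetochore genes Spc25 (3.20 ± 0.35) and Ttk (6.51 ± 0.89) had the smallest p. At old 48, 3 of the 25 rose, about the share over all genes (12.1%). At old 72 all 25 rose, against 6.54% of all genes. All 25 were lower in old than in young liver at 48 (median -3.17), against 6.78% of all genes. At 96 none of the 25 was called by edgeR between the ages, with 23 at an unadjusted p under 0.05 and a median of 1.84.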

How the data were processed

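The deposited tables hold raw read counts per gene for each of the 36 libraries, made by the authors. The submitters' processing notes name STAR 2.7.5b, featureCounts, Trimmomatic 0.39, SAMtools 1.10, Picard 2.20.8, deepTools 3.5, bcl2fastq 2.20.0 and FastQC 0.11.9 and the builds GRCm38 and mm10, with no role or order; the annotation and the use of strand are not given in the sources used here. No rows of the added control RNAs were found (0 rows). Counting errors follow from totals of 2328233 to 6034446 counts per library, in which 3 counts is the floor that a count of 0 allows.

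Low genes were removed with edgeR's filter by expression, TMM scaling was applied, and 1 quasi-likelihood model of 12 groups with robust spread was fitted in edgeR 4.0.16 (R 4.3.3), with Benjamini-Hochberg adjustment over 13436 genes. Fold changes are log2 with their standard errors. Later labels were compared with before within each age, old with young at each label, and age by time by an F test over 5 contrasts. The fit was tested on simulated data with 200 changed genes.

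The members and lists were chosen with earlier results of these data known. Values in full were given for the most abundant member of each role, the members of smallest p in the comparisons, those called against the direction of most, and the 1 that failed the filter. Alternatives were DESeq2 1.42.0, other scalings, no filter, no robust spread, only the groups compared, only libraries without Y-linked transcripts (chosen after seeing the data), each library left out, and a replicate block. Same-numbered libraries deviated together in all 3 pairs (correlation over 0.1) in 7 of 24 comparisons. Correlations ran from -0.378 to 0.578 over all 24. In each of these 7, replicate 1 was the library with Y-linked transcripts in both groups. Young replicate 1 held 297 CPM of Y-linked transcripts before and 0 at 48, so these libraries cannot be of the same animal. The shared number is the only source of the pairing.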

Additional observations from a re-analysis of the deposited data

Results flagged for a closer look

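The course over time differed between young and old liver for 15 of 46 members by the F test of the age by time term in edgeR, that is, by a test of the difference itself. Over all genes 2.76% were called. The count of members was 7 without young 48 replicate 1 and 7 without old 48 replicate 2. In nucleotide supply the adjusted p was 0.00129 for Rrm1, 0.00857 for Tyms and 0.0314 for Rrm2. Among firing genes it was 0.00748 for Gins2, 0.0134 for Dbf4 and 0.0198 for Gins3. For Fen1 of lagging-strand maturation it was 0.00498, for the helicase gene Mcm7 0.00553 and for the polymerase gene Pole 0.0245. The clamp Pcna gave 0.00914 and the loader subunit Rfc5 0.0485. The fork genes Rpa1 and Clspn gave 0.0145 and 0.0308, and the chromatin assembly genes Chaf1b and Chaf1a gave 0.0164 and 0.0468.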

How the results depend on the processing

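Of 547 repeats of results for single named members, 510 kept their direction and side of the threshold, 29 lost the call, 8 gained one and 0 reversed. Counts of members called moved as follows, and the cause was not tested. A fit of only the groups compared gave 3 at young 96, 0 at old 48, 14 at old 72, 0 at old 120, 0 for old against young at 48 and 7 at 96, and 0 for young 72 against 48 and 2 for 96 against 72. Over all genes such fits called 98 higher and 123 lower at old 48, 597 and 424 at old 72 and 110 and 92 at old 120. For old against young they called 1 and 0 at 48 and 70 and 38 at 96. For young 72 against 48 they called 1 and 0, and for 96 against 72, 77 and 85. DESeq2 gave 1 at young 96, 6 for old against young at 96, 11 and 4 for those young steps, 15 for the difference in rise to 48 and 25 for age by time. Over all genes, DESeq2 called 156 higher and 74 lower for old against young at 96 (18 and 5 by edgeR). It called 90 higher and 246 lower for young 72 against 48 (45 and 117), and 98 and 187 for 96 against 72 (18 and 32). For the difference in rise to 48 it called 172 and 357 (51 and 135), and for age by time 733 (371). With the replicate block, old against young gave 21 at 48 and 13 at 96, young 96 against 72 gave 2, the difference in rise to 48 gave 9 and age by time 23. Over all genes the block called 410 higher and 692 lower in old liver at 48, against 594 and 911 without it. At 96 it called 173 and 143, against 18 and 5. For young 96 against 72 it called 35 and 48, against 18 and 32. For the difference in rise to 48 it called 56 and 141, against 51 and 135, and for age by time 385, against 371. In the 7 comparisons whose same-numbered pairs deviated together the block moved 1 count, from 21 to 23 at old 96. Without the filter old 120 gave 1 and the difference in rise to 48 gave 3, and total-count scaling gave 1 for young 72 against 48. Over all genes, 171 rose and 172 fell at old 120 without the filter (248 and 272 with it). For the difference in rise to 48 it was 25 and 69 (51 and 135). Total-count scaling called 19 and 17 for young 72 against 48 (45 and 117 with TMM). Libraries without Y-linked transcripts gave 10 at old 120, 1 for old against young at 120, 0 for young 72 against 48, 8 for young 96 against 72, 1 for old 240 against 120 and 2 for the difference in rise to 48. Over all genes they called 484 higher and 473 lower at old 120, against 248 and 272 in all libraries. For old against young at 120 they called 33 and 18, against 0 and 0. For young 72 against 48 it was 9 and 7 (45 and 117), and for 96 against 72 it was 158 and 177 (18 and 32). For old 240 against 120 it was 133 and 168 (12 and 16), and for the difference in rise to 48 it was 11 and 19 (51 and 135). Leaving out 1 library gave 39 to 42 at young 48, 13 to 30 at young 72, 3 to 17 at old 48, 11 to 22 at old 72, 6 to 23 at old 96 and 0 to 6 at old 120. For old against young it gave 18 to 35 at 48 and 0 to 4 at 96. For young 72 against 48 it gave 0 to 9, for young 96 against 72 0 to 5, for old 72 against 48 0 to 2, for old 240 against 120 0 to 1, for the difference in rise to 48 1 to 11 and for age by time 7 to 17. Total-count scaling moved the median of all genes to 0.211 at young 72, 0.127 at young 96, 0.103 at young 120 and 0.111 at old 72. Depth limits most the members with at most 12 counts over the 3 libraries before: Pole2, Prim1, Ticrr, Gins1, Tipin, Cdc45, Cdc7 and Clspn in young liver, and Pole2, Chaf1b, Prim1, Cdc45, Cdc7 and Ticrr in old.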
